A study of Mus musculus with 13 samples.

Results

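The genes described are 10 members of the transforming growth factor beta (TGF-beta) pathway in mouse eosinophils of the small intestinal lamina propria, the connective tissue under the gut epithelium. They are 3 ligands (Tgfb1, Tgfb2 and Tgfb3), 2 receptors (Tgfbr1 and Tgfbr2), 2 receptor-activated SMADs (Smad2 and Smad3), the common SMAD (Smad4) and 2 inhibitors (Smad7 and Skil). They were found by symbol in the description column of the 2 deposited expression tables. Each of the 10 has 1 probe set in either table, so no choice between probe sets was needed, and they stand among 21395 named genes in 1 table and 25005 in the other. Sorting used Clec4a4, a C-type lectin with an inhibitory tail, and total RNA was hybridised to 13 microarrays. In mice with an mCherry reporter knocked in at Clec4a4, 5 arrays held mCherry+ and 5 held mCherry- eosinophils. The other 3 arrays held 1 sample each: Clec4a4+ cells from WT (wild-type) mice, Clec4a4- cells from WT mice, and Clec4a4- cells from mice labelled Ahr KO. Ahr encodes AHR, the aryl hydrocarbon receptor, which turns on genes in response to dietary and microbial compounds. The labels give no age, no number of animals per array and no drug or diet, and they do not say which part of Ahr was removed.

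TGF-beta is secreted in a latent form and acts, once released, through a type II receptor (Tgfbr2) that phosphorylates a type I receptor (Tgfbr1). The type I receptor phosphorylates SMAD2 and SMAD3, which bind SMAD4 and enter the nucleus to regulate genes. SMAD7 blocks the type I receptor and SKIL, also called SnoN, holds back SMAD complexes on DNA. In the gut, TGF-beta is known for restraining inflammation, for class switching to IgA and for inducing regulatory T cells, and eosinophils are among the cells described as a source of TGF-beta1.

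Windows from the RefSeq promoter table of mouse build GRCm38.p6 were searched for 5 of the 10 members. The 250 bases before the start site that this table uses are shown for 2 of them, Tgfb2 because it differed most on the array labelled Ahr KO, and Smad3 because it had the lowest unadjusted p in the reporter comparison without a block. Capitals mark GCGTG, the core letters of the site bound by AHR with its partner ARNT, on either strand (read as CACGC on the other), the E-box CACGTG and the TATA box TATAAA.
Tgfb2, chr1:186705990-186706239, minus strand: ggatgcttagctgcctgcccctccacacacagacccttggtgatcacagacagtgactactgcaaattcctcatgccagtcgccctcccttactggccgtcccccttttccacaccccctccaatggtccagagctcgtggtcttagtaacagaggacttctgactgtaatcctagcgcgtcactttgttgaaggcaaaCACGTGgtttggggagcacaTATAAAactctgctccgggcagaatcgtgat
Smad3, chr9:63757995-63758244, minus strand: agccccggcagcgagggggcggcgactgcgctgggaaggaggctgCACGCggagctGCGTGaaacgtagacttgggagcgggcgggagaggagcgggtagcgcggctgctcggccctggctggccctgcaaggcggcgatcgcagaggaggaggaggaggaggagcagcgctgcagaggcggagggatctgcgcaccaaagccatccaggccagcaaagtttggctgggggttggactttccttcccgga
The Tgfb2 window held 1 E-box, 1 TATA box and 0 matches to GCGTG, and the Smad3 window held 2 matches to GCGTG. Tgfb1 and Tgfbr2 had 1 match to GCGTG each, and Tgfbr1 had 2 in the first of its 2 windows and 0 in the second. Over 32536 different windows of the same length, 28.3% held GCGTG, 6.04% the E-box and 12.3% TATAAA. None of the windows of these 5 members held GTCTAGAC, a palindrome of the letters SMADs bind, which 0.169% of all windows held. Smad2, Smad4, Smad7, Tgfb3 and Skil were not searched for it. The Smad3 window ends where the annotated gene begins, whereas the Tgfb2 window lies inside the annotated gene, so it does not precede the outermost start of that gene. A match describes letters and not a bound site.

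All levels are log2 intensities as deposited, and levels of different genes cannot be ranked on an array. A value near or under the median of all gene values (5.36 in the reporter table, 4.802 in the other) may be background. Of 10 eosinophil markers, 6 lay above the median on all 10 reporter arrays and 9 on all 3 single arrays, while the peroxidase gene Epx lay under it on every reporter array. All 12 epithelial markers lay above the median on every reporter array, with a mean of 8.52 and 8.27 on the mCherry+ and mCherry- arrays of replicate 1 and of 10.06 to 10.96 on the other 8 arrays. The arrays of replicate 1 also had high Xist (9.90 and 10.36, against 3.56 to 3.93 elsewhere). Epithelial signal and Xist thus both set replicate 1 apart, and the 2 cannot be told apart where a result below depends on that replicate. No epithelial marker was called between mCherry+ and mCherry-. With the replicate block limma called 1 endothelial gene (Pecam1), 1 macrophage gene (Cd68) and 2 eosinophil genes, Itgax and the granule protein gene Prg2, of which 1 was higher in mCherry+ (Itgax) and 1 lower (Prg2). The mean of 10 neutrophil markers was 5.97 to 6.19 on mCherry+ and 6.91 to 7.78 on mCherry- arrays, and 5.85 to 6.35 against 6.08 to 6.64 without S100a8 and S100a9, the only markers of that list that were called. The neutrophil genes Ly6g, Mpo, Elane and Ltf lay under the median on all reporter arrays, and Cxcr2, Retnlg and Csf3r of the same list lay above it on all. Of 8 stromal markers 5 lay above the median on all 10 reporter arrays, as did 3 of 6 T cell markers, and none of either list was called. Every other list of cell type markers also had at least 1 marker above the median on all of them. The part of any of these cell types in any result below was not tested.

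The reporter sort asked which genes set mCherry+ and mCherry- eosinophils apart. None of the 10 TGF-beta members was called by limma at an adjusted p under 0.05, with or without a block for the replicate number. By sign 5 were higher and 5 lower in mCherry+ eosinophils, and the groups overlapped for every member. Over all genes, limma called 0.355% without the block and 1.76% with it, and the groups did not overlap for 1.9%, so 0 of 10 lies near the background. At an unadjusted p under 0.05, 1 member passed without the block (Smad3), against 7.33% of all genes, and 3 with it (Smad2, Smad3 and Skil), against 11.8%. The median difference was -0.03 over the members and -0.01 over all genes. These are RNA levels of bulk samples, in which fewer cells of a type and less RNA per cell cannot be told apart.

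**Figure D1:**
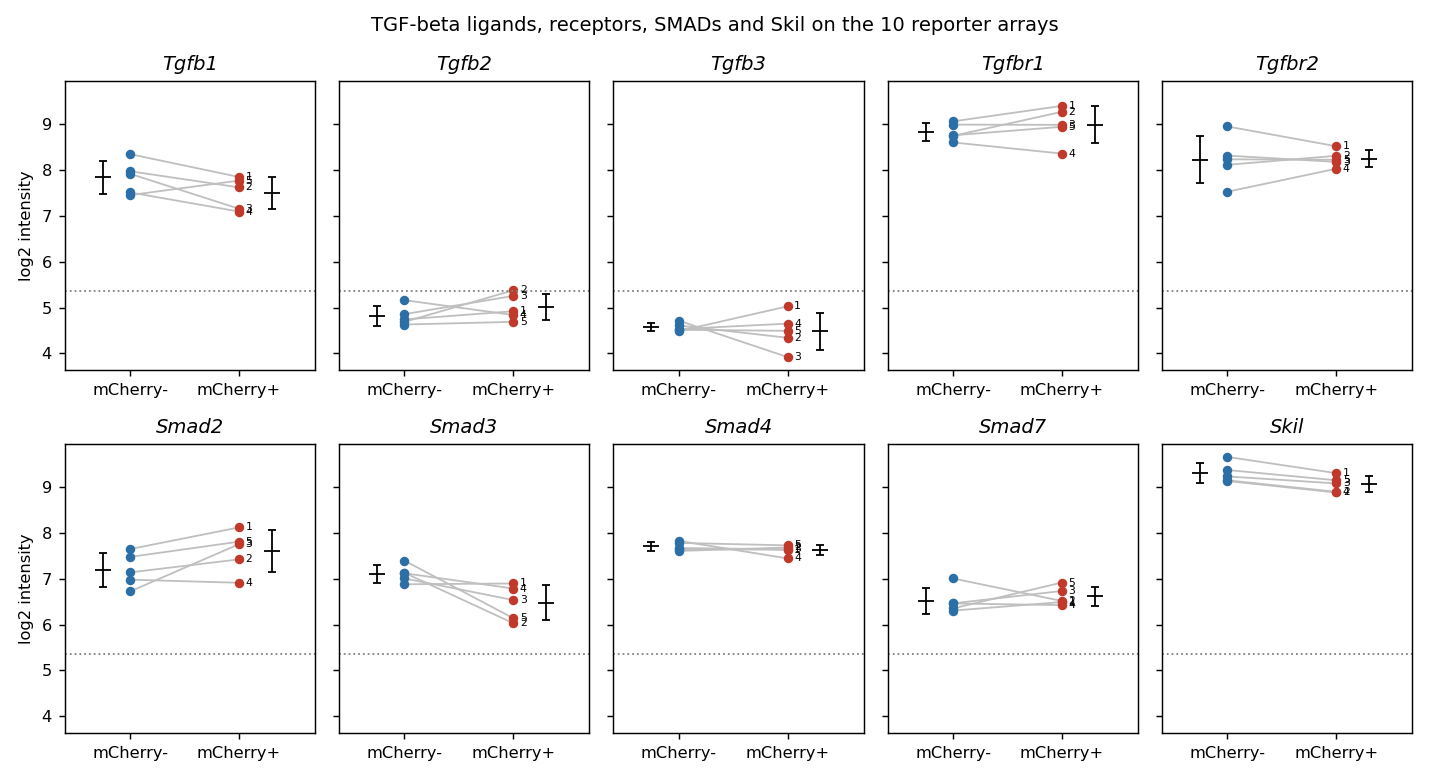
Log2 intensity of each member on the 10 reporter arrays, with mCherry- arrays in blue, mCherry+ arrays in red, grey lines joining arrays with the same replicate number (printed at the right), bars for the mean and SD of 5 arrays and a dotted line at the median of all gene values (5.36). The 2 groups overlap in every panel, and only the Skil lines all slope the same way.

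Tgfb1 encodes the main TGF-beta isoform of immune cells. It stood at 7.85, 7.63, 7.16, 7.10 and 7.77 on mCherry+ arrays 1 to 5 and at 8.35, 7.98, 7.92, 7.52 and 7.46 on mCherry- arrays 1 to 5. It was lower in mCherry+ eosinophils in 4 of 5 pairs, with pair 5 the exception, and the groups overlapped. The means were 7.503 ± 0.351 (SD, n = 5) and 7.846 ± 0.367, a difference of -0.34 (SE 0.22) that did not pass (limma adjusted p = 0.845, and 0.486 with the block).

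Tgfb2 and Tgfb3, the isoforms best known from development and from epithelial and stromal cells, were near or under the level that may be background. Tgfb2 stood at 4.92, 5.38, 5.26, 4.84 and 4.69 on the mCherry+ arrays and at 4.74, 4.69, 4.86, 5.16 and 4.63 on the mCherry- arrays. Only array 2 of mCherry+ rose above the median of all gene values, and the difference was 0.20 (SE 0.15, limma adjusted p = 0.894). Tgfb3 lay under the median on all 10 arrays, between 3.92 and 5.03 in mCherry+ and between 4.49 and 4.72 in mCherry- eosinophils (difference -0.09, SE 0.17). Among the ligands only Tgfb1 was thus clearly measured on the reporter arrays.

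Both receptors were well above the median on all 10 arrays. Tgfbr1, the type I receptor kinase, stood at 9.41, 9.28, 8.99, 8.36 and 8.95 on the mCherry+ arrays and at 9.07, 8.75, 8.997, 8.61 and 8.76 on the mCherry- arrays. It was higher in mCherry+ in 3 of 5 pairs (difference 0.16, SE 0.20, limma adjusted p = 0.964, and 0.731 with the block). The pairs therefore went both ways for this receptor, and the 95% interval of the difference ran from -0.27 to 0.59.

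Tgfbr2, the type II receptor that binds the ligand first, stood at 8.53, 8.32, 8.18, 8.03 and 8.23 on the mCherry+ arrays and at 8.96, 8.12, 8.32, 7.53 and 8.24 on the mCherry- arrays. The mCherry- values spread more widely (SD 0.51) than the mCherry+ values (SD 0.18), with the highest on array 1 and the lowest on array 4. Both arrays of replicate 1, which had the least epithelial signal and high Xist, lay above the other 8 (7.53 to 8.32). The difference was 0.02 with a 95% interval of -0.48 to 0.53 (limma adjusted p = 0.999), and its sign changed in some fits that left out arrays (-0.10 without replicate 4).

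Of the receptor-activated SMADs, Smad2 tended up and Smad3 down in mCherry+ eosinophils, and neither passed. Smad2 stood at 8.12, 7.42, 7.75, 6.91 and 7.81 on the mCherry+ arrays and at 7.65, 7.14, 6.72, 6.98 and 7.48 on the mCherry- arrays. It was higher in 4 of 5 pairs, the exception being pair 4 (-0.07), and the largest pair difference was 1.03 in pair 3. The means were 7.60 ± 0.46 (SD, n = 5) and 7.19 ± 0.37, a difference of 0.41 (SE 0.25, limma adjusted p = 0.831, and 0.384 with the block).

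Smad3 had the largest difference of the 10 genes. It stood at 6.90, 6.03, 6.53, 6.79 and 6.14 on the mCherry+ arrays and at 6.88, 7.13, 7.01, 7.12 and 7.40 on the mCherry- arrays. Without replicate 1 every mCherry+ array (6.03 to 6.79) lay under every mCherry- array (7.01 to 7.40), whereas the arrays of replicate 1 differed by only 0.02. Replicate 1 was set aside here after the values were seen. The share of all genes that separate in this way without it was not computed, so the separation has no background to be read against. The means were 6.48 ± 0.38 (SD, n = 5) and 7.11 ± 0.19, which is 1.55-fold lower in mCherry+ (difference -0.63, SE 0.19, 95% interval -1.05 to -0.20). Smad3 did not pass over all genes (limma adjusted p = 0.362, and 0.238 with the block), and without replicate 1 the difference was -0.79 (adjusted p = 0.273, and 0.198 with the block).

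Smad4, the partner that both SMADs need, was the steadiest member. It stood at 7.63, 7.68, 7.64, 7.44 and 7.73 on the mCherry+ arrays and at 7.65, 7.61, 7.67, 7.83 and 7.78 on the mCherry- arrays. All 10 values lay within 7.44 to 7.83, and the difference was -0.08 with a 95% interval of -0.35 to 0.19 (limma adjusted p = 0.975).

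Of the inhibitors, Smad7 varied with no common direction. It stood at 6.49, 6.51, 6.73, 6.42 and 6.92 on the mCherry+ arrays and at 6.30, 7.01, 6.46, 6.46 and 6.35 on the mCherry- arrays. Array 2 of mCherry- stood apart at the top of its group, and the difference was 0.10 (SE 0.17, limma adjusted p = 0.98).

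Skil was the only member that differed the same way in all 5 pairs. It stood at 9.31, 8.90, 9.08, 8.88 and 9.15 on the mCherry+ arrays and at 9.66, 9.15, 9.24, 9.13 and 9.37 on the mCherry- arrays. The pair differences ran from -0.36 to -0.15, so the size was small and even, but the spread between replicate numbers made the groups overlap. The difference was -0.25, which is 1.19-fold (SE 0.15, limma adjusted p = 0.829), and with the block the SE fell to 0.09 and the adjusted p to 0.305. Over all genes, 5.95% were lower in mCherry+ eosinophils in all 5 pairs, so 1 member of 10 lies near the background.

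**Figure D2:**
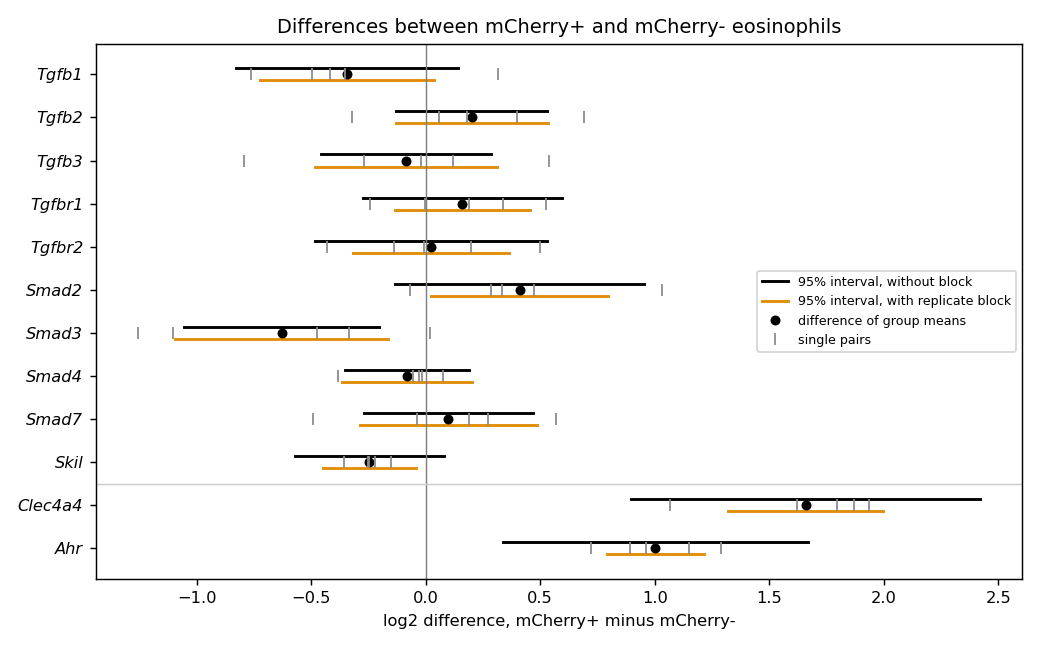
Log2 difference of mCherry+ minus mCherry- eosinophils for the 10 members and, under the grey line, for Clec4a4 and Ahr, with the mean as a black point, 5 single pairs as grey ticks and 95% intervals of limma without (black) and with (orange) the replicate block. The member with the largest difference is Smad3 at -0.63, while Clec4a4 lies at 1.66 and Ahr at 1.00.

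Clec4a4, the gene that carries the reporter, and Ahr were the checks of the labels. Clec4a4 lay 1.66 higher in mCherry+ arrays, in 5 of 5 pairs and with no overlap (limma adjusted p = 0.0804, and 0.00205 with the block). On the mCherry- arrays Clec4a4 still stood at 6.42 to 7.93, above the median of all gene values, so these samples were not without Clec4a4 RNA. Ahr lay 1.00 higher in 5 of 5 pairs (limma adjusted p = 0.347, and 0.00234 with the block).

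The genes whose levels followed Smad3 and Skil most closely over the 10 reporter arrays were also listed, as a description over 10 arrays that share a normalization and come in pairs. For Smad3 these were Snx5 (Pearson r = 0.947), Zfp131 (0.930), Sap30l (0.928), Tbc1d25 (0.890) and Nop58 (0.885). For Skil they were Gpr141b (0.954), Dgat1 (0.936), Chst1 (0.933), the microRNA gene Mir125b-2 (0.933) and Padi2 (0.925). None of these 10 genes belongs to the pathway lists below. They are the highest of 21394 genes searched for each member, and a search of that size over 10 arrays returns high values in any case.

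The rest of the pathway was counted in 5 lists, of which 65 genes beside the members are reported, all measured. None of the 65 passed without the block or with it, against 0.355% and 1.76% of all genes (with the block 1.01% higher and 0.748% lower). Of 13 genes for the storage and activation of latent TGF-beta none was called (median -0.10), and the largest differences were those of the integrin subunit Itgav (0.41) and of Lrrc32, which tethers latent TGF-beta to the cell surface (0.30). The Lrrc32 value rested on replicate 4 (7.72 against 6.11), without which it was -0.03. Thbs1 differed less (-0.26) but was lower in 5 of 5 pairs, as were 5.95% of all genes (limma adjusted p = 0.788, and 0.0636 with the block). Of 13 co-receptors and receptor regulators none was called (median -0.02), with Tgfbrap1 at 0.53 and the deubiquitinase Usp15 at 0.46.

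Of 11 other SMADs and nuclear partners none was called (median 0.09). Tgif1, a corepressor of SMAD2, differed by -0.72 (limma adjusted p = 0.311, and 0.132 with the block). It was lower in 5 of 5 pairs, as were 5.95% of all genes. Smad5, a SMAD of the BMP arm, differed by 0.52 and was higher in 5 of 5 pairs, as were 5.97% of all genes. Further genes of the 5 lists, not named for it, also had the same sign in all 5 pairs. None of 15 genes of the activin and BMP arm was called either (median 0.01).

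Acvr1b, the type I activin receptor that also signals through SMAD2 and SMAD3, had the largest difference in these lists. It stood at 6.20, 6.08, 6.78, 6.66 and 6.55 on the mCherry+ arrays and at 6.06, 5.05, 5.60, 5.31 and 5.80 on the mCherry- arrays. The groups did not overlap, although array 2 of mCherry+ and array 1 of mCherry- all but met, and 1.9% of all genes showed no overlap. The difference was 0.89 (SE 0.21, limma adjusted p = 0.146, and 0.0588 with the block). It passed with the block only when replicate 1 (adjusted p = 0.0339) or dim genes (adjusted p = 0.0351) were left out. Inhba, which encodes an activin subunit, differed by -0.69 and was higher in 1 of 5 pairs. It rested on replicate 5 (4.79 against 6.97), without which it was -0.32, and it lay above the table median on 4 of 10 arrays.

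Of 18 response genes reported, which include the members Smad7 and Skil, none was called, 12 were lower by sign and the median was -0.076. Beside Tgif1, which is also in this list, Id1, a helix-loop-helix inhibitor of differentiation, had the largest difference (-0.52, SE 0.41, limma adjusted p = 0.907, and 0.497 with the block) and was lower in mCherry+ in 4 of 5 pairs. It rested on replicate 5 (6.07 against 7.84), without which it was -0.21. Tgfbi, a matrix protein named for its induction by TGF-beta, was lower in 5 of 5 pairs, as were 5.95% of all genes. Tgfbi stood at 8.73 ± 0.30 (SD, n = 5) in mCherry+ against 9.21 ± 0.26 in mCherry- (limma adjusted p = 0.546, and 0.0656 with the block).

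**Figure D3:**
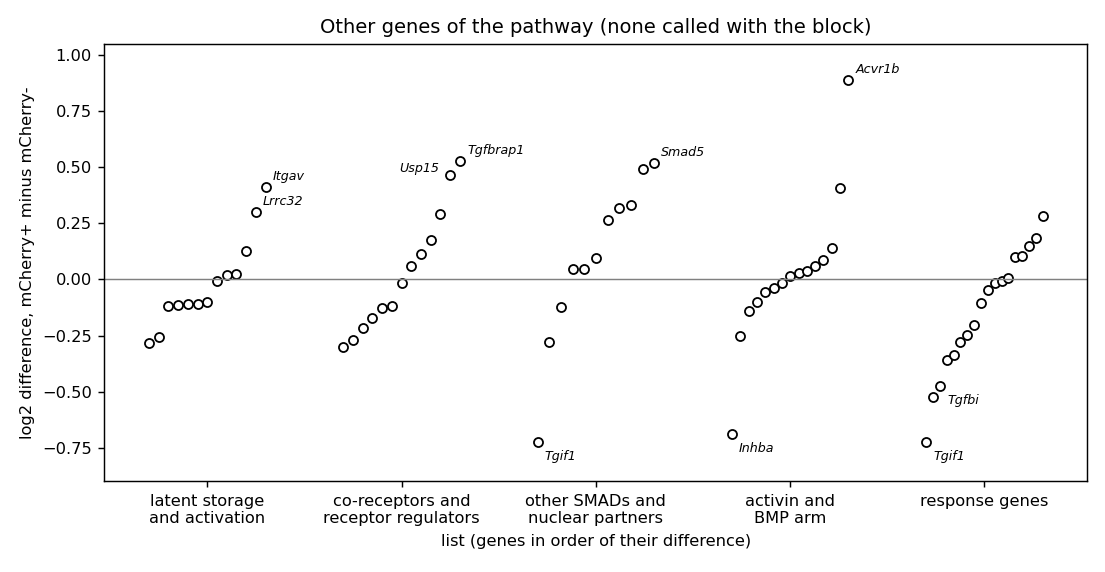
Log2 difference of mCherry+ minus mCherry- eosinophils for each gene (points) of the 5 pathway lists, ordered within a list. No gene shown was called by limma with the replicate block, and Acvr1b at 0.89 and Tgif1 at -0.72, which is in 2 lists, lie farthest from 0.

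The pair of WT arrays set Clec4a4+ against Clec4a4- eosinophils of mice without the reporter. With 1 array per group the differences have no replicate check and no test, and a difference counted when it reached 2-fold with the higher value at or above the table median. Clec4a4 stood at 9.14 on the Clec4a4+ and 5.57 on the Clec4a4- array. None of the 10 members was 2-fold apart, against 1.67% of all genes, and 3 were 1.5-fold apart (Tgfb2, Smad4 and Smad7), against 5.63%. The median difference was -0.32 over the members and 0.00 over all genes.

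The members stood as follows on the WT arrays, Clec4a4+ first. Tgfb1 stood at 9.46 and 9.79, a difference of -0.33. Smad3 stood at 5.61 and 6.02 (-0.41), and Skil at 8.67 and 8.98 (-0.31). These 3 genes lay lower on the Clec4a4+ array and in mCherry+ eosinophils, where the differences were -0.34, -0.63 and -0.25 in a table of another array model. None of the 3 passed in the reporter sort, and none of their differences between the WT arrays reached 1.5-fold. The median over the members was itself -0.32 between the WT arrays, so a shared direction of these 3 is not a match of the 2 sorts. Smad2 stood at 8.18 and 7.87 and Tgfbr1 at 8.11 and 7.79, both 0.31 higher on the Clec4a4+ array. Tgfbr2 stood at 7.67 and 8.14 (-0.48), and Tgfb3 lay under the median on both. Smad4 stood at 8.28 and 9.18, which is 1.87-fold, and Smad7 at 7.11 and 6.42, which is 1.61-fold the other way. In the reporter pairs Smad4 differed by no more than 0.39 in size and Smad7 went both ways. Tgfb2 stood at 5.51 and 4.70, at least 1.64-fold when computed from the median.

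**Figure D4:**
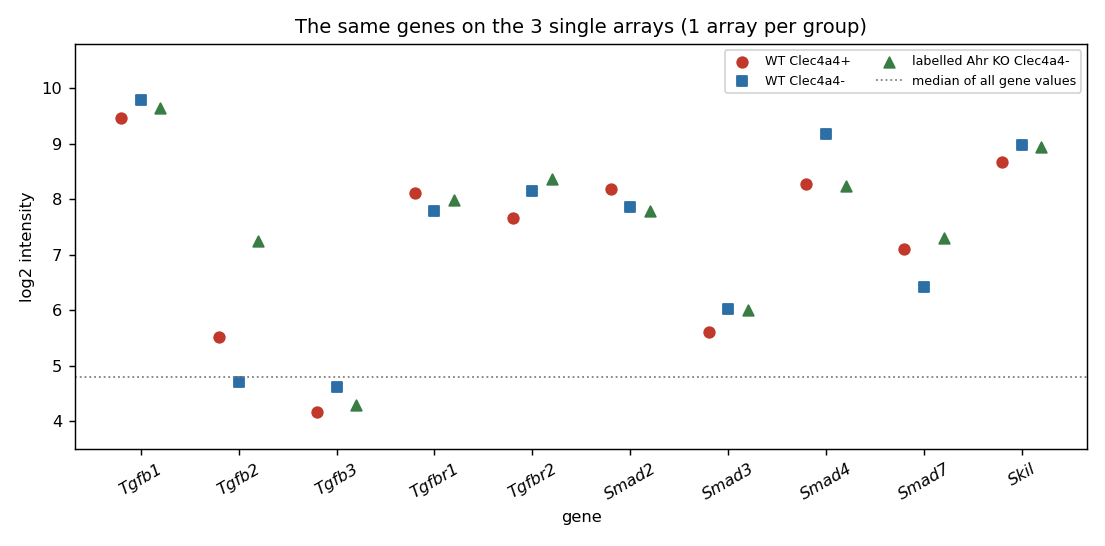
Log2 intensity of the 10 members on the arrays of WT Clec4a4+ (circles), WT Clec4a4- (squares) and labelled Ahr KO Clec4a4- (triangles) eosinophils, 1 array each, with a dotted line at the median of all gene values (4.802). Tgfb2 is highest on the array labelled Ahr KO at 7.24, and Smad4 is highest on the WT Clec4a4- array at 9.18.

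The array labelled Ahr KO was set against the WT Clec4a4- array, again 1 array each with no replicate check. The brighter of 2 Ahr probe sets was not lower on it, at 11.12 against 11.11 and 11.08 on the WT Clec4a4+ and Clec4a4- arrays. The dimmer one was lowest there, at 7.43 against 7.60 and 7.83. A probe set outside the deleted part checks nothing, and the labels do not say what was deleted. Tiparp, a direct target of AHR that is named here as a check on the label, stood at 8.01 against 11.52 and 11.57, and Clec4a4 lay under the median at 3.93. Other AHR targets were less informative. Ahrr stood at 4.44 against 7.14 and 4.98, so it was low on both Clec4a4- arrays. Cyp1a1 (4.41 against 4.85 and 4.58) and Cyp1b1 (4.46 against 4.92 and 4.70) lay near or under the median on every array.

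Tgfb2 was the only member 2-fold or more apart between the array labelled Ahr KO and the WT Clec4a4- array, 1 of 10 against 1.37% of all genes. At 1.5-fold 3 members were apart (Tgfb2, Smad4 and Smad7), against 5.16%. It stood at 7.24 on the array labelled Ahr KO, at 4.70 on the WT Clec4a4- array and at 5.51 on the WT Clec4a4+ array. It was thus at least 5.42-fold higher than on the WT Clec4a4- array and 3.31-fold higher than on the WT Clec4a4+ array, from which 0.992% of all genes were 2-fold apart in either direction. By the difference from the WT Clec4a4- array, with values under the median set to it, Tgfb2 ranked 6 of 25005 genes, and 28 genes (0.112%) were 2-fold or more higher there than on both WT arrays. On the reporter arrays, of another model, all Tgfb2 values lay between 4.63 and 5.38.

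Markers of other cell types were compared on the same arrays. The mean of 8 stromal markers was 5.77 on the array labelled Ahr KO, 5.54 on the WT Clec4a4- and 5.46 on the WT Clec4a4+ array, with none 2-fold apart between the first 2. The mean of 12 epithelial markers was 6.34, 6.10 and 6.05 in the same order, with only Cdh17 2-fold higher on the array labelled Ahr KO than on the WT Clec4a4- array. On all 3 arrays 6 of 8 stromal and 9 of 12 epithelial markers lay above the median, while the stromal markers Lum and Pdgfra and the epithelial marker Krt20 lay under it. Further markers were 2-fold or more higher on the array labelled Ahr KO than on the WT Clec4a4- array. These were the erythroid genes Hba-a2 and Hbb-bt, the T cell gene Cd3e, the neutrophil gene Cxcr2 and the mast cell gene Kit. The platelet gene Ppbp was lower there. Hba-a2, Hbb-bt, Cd3g and Ppbp were also 2-fold or more higher on the WT Clec4a4+ than on the WT Clec4a4- array, and Prg2 and Cldn5 were lower. Cdh17, Lgals4, Csf1r, Cd68, Cxcr2, S100a8 and S100a9 were 2-fold or more apart between the WT arrays too. The erythroid mean was 5.15 on the array labelled Ahr KO, 3.65 on the WT Clec4a4- and 4.97 on the WT Clec4a4+ array. The part of these cells in the Tgfb2 level was not tested.

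Smad4 and Smad7 were the next largest differences. Smad4 stood at 8.24 on the array labelled Ahr KO, 0.94 lower than on the WT Clec4a4- array and 0.04 from the WT Clec4a4+ array. Smad7 stood at 7.30, 0.88 higher than on the WT Clec4a4- array and 0.19 higher than on the WT Clec4a4+ array. Both comparisons share the WT Clec4a4- array, on which Smad4 was highest and Smad7 lowest of the 3. The other members differed little from the WT Clec4a4- array. Tgfb1 (9.64), Tgfbr1 (7.98), Tgfbr2 (8.36), Smad2 (7.78), Smad3 (6.0) and Skil (8.95) lay within 0.22 of it, and Tgfb3 (4.29) was under the median.

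Of the 65 pathway genes reported, 4 were 2-fold or more apart by their measured values between the WT arrays, against 1.67% of all genes. In the latent TGF-beta list Thbs1 was lower on the Clec4a4+ array (11.11 against 12.28), and so was Ltbp4 (4.61 against 5.71), for which the lower value is under the table median and the bound is only 1.87-fold. Of the response genes Tgfbi (9.10 against 10.33) was lower there, and Itgae, an integrin subunit induced by TGF-beta in T cells, was higher (6.13 against 5.02). The mean of 6 T cell markers was also higher there (5.43 against 4.83), and the part of T cells in the Itgae level was not tested. On the array labelled Ahr KO, 2 response genes lay 2-fold or more under the WT Clec4a4- array, and no gene of another list was 2-fold apart, against 1.37% of all genes. These were the cell cycle inhibitor Cdkn1a (9.47 against 10.90) and Junb (10.38 against 11.42). The median over the 18 response genes was -0.22 between the WT arrays and -0.095 for the array labelled Ahr KO, both against 0.00 over all genes.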

How the data were processed

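RNA of sorted eosinophils was measured on 13 arrays, and the values used are log2 intensities as deposited by the authors, in 2 tables. Per the submitters' processing notes the software was RMA, a method that corrects background, brings arrays to 1 distribution and summarises probes; no version is stated there. Each table holds its own array model and its own normalization, and differences were taken only within a table. Median log2 intensity was 5.18 to 5.27 on the reporter arrays and 4.73 to 4.75 on the others, and the number of arrays limits the precision. The value tables of the series matrix held the same values. Arrays of a group correlated at 0.921 to 0.977, and none were identical.

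Probe sets were named by Entrez identifier, or by accession where there was none, through a RefSeq gene table of GRCm38.p6 used for names only. Of 35556 probe sets in the reporter table, 22106 matched by identifier and 1901 by accession, 443 kept the file's name and 11106 stayed unnamed. In the other table the numbers were 24119, 1851, 1230 and 1160 of 28360. The brightest probe set of a gene over the arrays of its file was kept.

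The reporter comparison was fitted with limma (version 3.58.1, R 4.3.3), its trend and robust options on, as a two-sided test without covariates and with Benjamini-Hochberg adjustment over 21395 genes. The fit without the block was tested on simulated data with independent arrays, and the fit with the block was not tested in this way. Sample titles number the reporter samples as biological replicates and name no mouse, so the spread behind a p-value is that between samples, which may be technical. Deviations from the group means correlated within each replicate number (0.659, 0.165, 0.171, 0.527 and 0.199). The largest correlation with another number was -0.02, 0.093, 0.071, 0.246 and 0.121, so the margin was small for replicates 2, 3 and 5. The pairing was judged from these values, and the fit with the replicate number as a block is given beside the first. The single arrays were described with a 2-fold rule and no test, and where the dimmer array lay under the table median, that median replaced it and the fold is a lower bound.

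The 10 genes, the pathway lists and the alternatives were chosen with earlier results of these data known. One gene of the response list is not reported here, and counts and medians of that list leave it out. Named beside the members were the list genes called in either fit (or the 2 with the largest difference), up to 3 list genes per single-array comparison, and the 5 genes most like the 2 members with the lowest p in the blocked fit. Tiparp, Ahrr, Cyp1a1, Cyp1b1, Xist and marker genes, and reporter values of Tgfbi and Thbs1, were added after their values were seen. Python 3.11.15 and pandas 2.3.3 were used for tables.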

Additional observations from a re-analysis of the deposited data

Results flagged for a closer look

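In 1 of 20 sets of 5 arrays (10 genes in each of 2 groups), a single array lay far from the rest. Smad7 on array 2 of mCherry- stood at 7.006, with the next at 6.463 and the lowest of that group at 6.305. How often chance gives such a gap was not computed, and with 20 sets searched, 1 such gap is not read as a result about Smad7.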

How the results depend on the processing

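No TGF-beta member was called under any of the 28 alternatives for the reporter comparison. The lowest adjusted p was 0.153, for Smad3 with the replicate block and dim genes left out. Of 276 recomputed member differences, 264 kept their sign and 12 turned, all of them for Tgfb3, Tgfbr2 or Smad7 with arrays left out. Many of these could not turn. The block, the limma options, leaving out dim genes, the handling of probe sets and the series matrix values do not change a member's difference. The blocked fits without a replicate number repeat the differences of the fits without the block, so turns there are counted again. Leaving out 1 array or both arrays of a replicate number moved Tgfb3 from -0.243 to 0.091, Tgfbr2 from -0.152 to 0.205 and Smad7 from -0.018 to 0.247, and among list genes Lrrc32 from -0.183 to 0.456 and Ltbp4 from -0.206 to 0.258. With the replicate block, Tgfb3 was 0.091 without replicate 3, Tgfbr2 -0.019 and -0.095 without replicates 2 and 4, Smad7 -0.018 without replicate 5, Lrrc32 -0.028 without replicate 4, and Ltbp4 -0.079 and -0.003 without replicates 1 and 5. Of all genes 76 were called without a block, 376 with the replicate block, 122 with dim genes left out and 481 with both. Leaving out 1 array gave 29 to 115 genes, and leaving out a replicate number gave 12 to 135. With the block, 170, 183, 153, 320 and 158 genes were called without replicates 1 to 5 in turn. The cause of these shifts was not tested. Leaving out dim genes in the blocked fit called Acvr1b (adjusted p = 0.0351), Tgfbi (0.0386) and Thbs1 (0.0272). At 1.5-fold, 3 members in place of 0 were apart between the WT arrays, and 3 in place of 1 between the array labelled Ahr KO and WT Clec4a4-. The other settings for single arrays left these counts as they were. Levels near the table median, as for Tgfb2 and Tgfb3, limit what the arrays can show.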
